A study of Mus musculus with 24 samples.

Results

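The 10 genes described here are markers of intestinal T cells and of their cytotoxic and tissue-resident forms: Cd3e, Cd3g, Cd4, Cd8a, Trdc, Itgae, Cd160, Gzma, Gzmb and Ccl5. They were taken by gene symbol from a table of read counts for 55536 genes. The tissue was distal small intestine, and RNA of 24 C57BL/6N mice was sequenced, with 1 library per mouse and 1 mouse taken from each shared cage. Mice were 4 to 5 weeks old at the start and ate a control diet with 10 kcal% fat (CD) or one high in fat, with 60 kcal% (HFD), for 20 weeks. In the CDmetf and HFDmetf groups metformin, an oral antidiabetic drug, was then added to the drinking water at 50 mg/kg/day for 10 weeks, while both diets went on. Each of the 4 groups held 3 males (M1 to M3) and 3 females (F1 to F3), and the libraries of all 24 mice entered every fit.

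Intraepithelial lymphocytes are T cells that sit between the epithelial cells of the gut. Many of them carry the co-receptor CD8 or the gamma delta T-cell receptor, and the integrin αE that Itgae encodes holds them to E-cadherin on the epithelium. Other T cells lie in the lamina propria or, together with B cells, in lymphoid follicles and Peyer's patches. Ms4a1, which encodes the B-cell surface protein CD20, served as the measure of B-cell content of each library.

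The libraries held 1829690 to 40606442 reads on genes, with 10 libraries at or above 9261065 and 14 at or below 5186123. Levels are given as CPM, which are read counts scaled to a common library size after TMM normalization, and 3 counts, below which a level is printed as measured but rests on too few reads to be told from 0, corresponded to 0.0705 CPM in the deepest library and 1.71 CPM in the shallowest; such floors cover counting error only. The 10 largest genes of CD M3 held 85.4% of its counts, and in 2 libraries, HFD M2 and HFD F2, sex-linked transcripts went against the label. All 3 libraries were kept under their labels. With CD M3 left out, or with HFD M2 and HFD F2 left out, the number of these T-cell genes past the threshold stayed at 0 in the 4 contrasts between groups. The number of all genes past it was also 0 in these fits and with every library kept, so the count for the T-cell genes could hardly move. HFDmetf F2, the library highest in Itgae, had the fewest reads, 36.6% of its counts in 10 genes and 46.9% unmapped reads. HFD M3, the highest in Gzma and Gzmb, had the largest mitochondrial share, 11.4%. Both were kept as well. The epithelial genes Epcam, at 641 to 1950 CPM, and Cdh1, at 723 to 1390 CPM, were high in every library. They mark epithelium in general, and no marker of the part of the gut was examined here.

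The T-cell genes lay low in this tissue. Per kilobase of exon, Cd4 stood highest with a median of 3.06 CPM per kb over the 24 libraries, followed by Ccl5 at 1.64, Itgae at 1.54, Gzma at 1.07, Cd160 at 0.723, Cd3e at 0.583, Gzmb at 0.580, Cd3g at 0.531, Cd8a at 0.499 and Trdc at 0.192 CPM per kb. Among neighbours in this order, Cd4 exceeded Ccl5 in 21 of 24 libraries, Itgae exceeded Gzma in 20 and Cd8a exceeded Trdc in 22. The other neighbours were less apart, since Ccl5 exceeded Itgae in 11 libraries, Cd3e exceeded Gzmb in 11, Cd160 exceeded Cd3e in 15, Gzmb exceeded Cd3g and Cd3g exceeded Cd8a in 16 each, and Gzma exceeded Cd160 in 17. Only Cd3e, Cd3g, Cd4, Itgae and Cd160 passed the filter on low counts, which kept 14076 genes. Cd8a, Trdc, Gzma, Gzmb and Ccl5 did not pass it, and their levels rest on few reads.

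**Figure D1:**
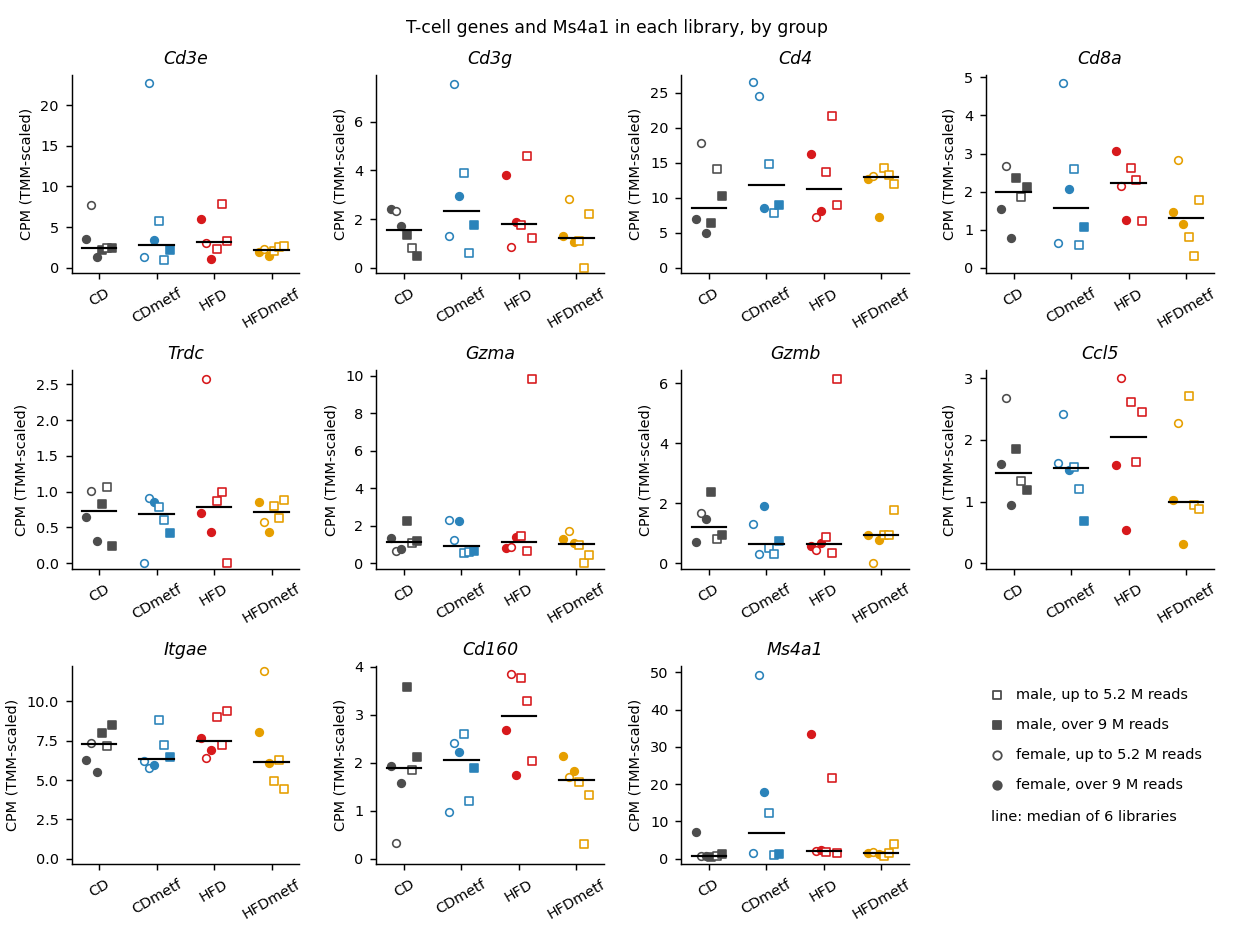
CPM of the 10 T-cell genes and of Ms4a1 in each library (points, vertical axis from 0) by group (horizontal axis), with the median of 6 libraries as a line. The groups overlap for every gene, and single libraries stand apart: CDmetf F2 at 22.7 CPM for Cd3e, and HFD M3 at 9.81 CPM for Gzma and 6.13 CPM for Gzmb.

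Cd3e and Cd3g encode the epsilon and gamma chains of CD3, the signalling part of the T-cell receptor complex that every T cell carries. Both genes lie on the minus strand of chromosome 9 in GRCm38, Cd3g (ENSMUSG00000002033) from 44969572 to 44980431 and Cd3e (ENSMUSG00000032093) from 44998740 to 45009627. Cd3e overlaps the annotated genes Gm48720 on its own strand and Gm48719 on the other, so part of its reads may not have been assigned to it. The 250 bases before the RefSeq start of each are printed here because these neighbouring genes had the highest r with B-cell content of the 10, as described further on, and those of Gzma are printed beside them because its correlation was near 0. The sequences are from RefSeq on GRCm38.p6, run 5′ to 3′ on the strand of the gene, and have matches to RUNX (TGTGGT), ETS (AGGAAG) and E-box (CAGNTG) motifs on either strand in capitals.
Cd3e, chr9:45009612-45009861 (minus strand): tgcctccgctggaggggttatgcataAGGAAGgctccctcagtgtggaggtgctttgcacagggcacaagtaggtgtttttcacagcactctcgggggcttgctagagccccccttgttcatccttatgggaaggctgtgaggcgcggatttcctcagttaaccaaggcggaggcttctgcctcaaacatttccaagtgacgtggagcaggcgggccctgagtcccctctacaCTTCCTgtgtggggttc
Cd3g, chr9:44980432-44980681 (minus strand): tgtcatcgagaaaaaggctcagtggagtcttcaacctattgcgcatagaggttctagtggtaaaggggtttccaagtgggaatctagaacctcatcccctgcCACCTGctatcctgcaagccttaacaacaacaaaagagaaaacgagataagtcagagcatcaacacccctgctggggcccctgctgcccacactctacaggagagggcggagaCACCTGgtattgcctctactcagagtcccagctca
Gzma, chr13:113100982-113101231 (minus strand): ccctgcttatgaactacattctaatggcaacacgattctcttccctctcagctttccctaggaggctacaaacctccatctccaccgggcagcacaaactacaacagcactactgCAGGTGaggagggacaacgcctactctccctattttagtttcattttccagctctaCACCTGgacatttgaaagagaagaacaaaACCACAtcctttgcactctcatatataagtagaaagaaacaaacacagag
The Cd3e window held 2 matches to the ETS motif and 0 to the others, the Cd3g window held 2 matches to the E-box motif and 0 to the others, and the Gzma window held 1 RUNX and 2 E-box matches. Among all 32851 promoter sequences of the same length, 29.5% held an ETS match, 44.8% an E-box match and 14% a RUNX match, and the motifs do not overlap each other in these windows. Promoter sequences were at hand for 6 of the 10 genes. The RefSeq start of Cd3e lies inside the gene as GENCODE M21 draws it, so the end of the printed window, with most of the ETS match nearest the start, is annotated there as part of the gene. A match is a description of letters only.

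Cd3e was measured at 1.36 to 7.71 CPM in the CD group (median 2.38), at 0.902 to 22.7 CPM in the CDmetf group (median 2.82), at 1.03 to 7.90 CPM in the HFD group (median 3.13) and at 1.49 to 2.66 CPM in the HFDmetf group (median 2.17). The HFDmetf libraries were the most alike, with an SD of 0.418 CPM (n = 6) against 2.29 in CD, 8.35 in CDmetf and 2.55 in HFD. Its highest library was CDmetf F2, followed by HFD M2 and CD F2. In HFDmetf vs. CDmetf the fitted logFC of Cd3e was −1.23 (SE = 0.542, FDR = 0.627 in edgeR's quasi-likelihood test), with HFDmetf higher in 3 of the 6 pairs of libraries that share sex and replicate number. In HFDmetf vs. HFD it was −0.77 (SE = 0.556, FDR = 0.655), in CDmetf vs. CD 0.80 (SE = 0.512, FDR = 0.940) and in HFD vs. CD 0.34 (SE = 0.528, FDR = 1), and none of these passed the threshold of 0.05. Single libraries carried much of these values: without CDmetf F2 the logFC of Cd3e was 0.10 in CDmetf vs. CD and −0.61 in HFDmetf vs. CDmetf, and without HFD F1 it was 0.02 in HFD vs. CD and −0.47 in HFDmetf vs. HFD.

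Cd3g had 0.473 to 2.41 CPM in CD libraries (median 1.53), 0.601 to 7.57 in CDmetf libraries (median 2.35), 0.857 to 4.61 in HFD libraries (median 1.80) and, in the HFDmetf group, from 0 to 2.84 (median 1.2). CDmetf F2 was again the highest library, HFD M2 the next, and 6 of 24 libraries had at most 3 reads. The logFC was −1.24 in HFDmetf vs. CDmetf (SE = 0.534, FDR = 0.611) and −0.95 in HFDmetf vs. HFD (SE = 0.546, FDR = 0.640). It was 0.96 in CDmetf vs. CD (SE = 0.497, FDR = 0.940) and 0.67 in HFD vs. CD (SE = 0.507, FDR = 1), with the HFD library higher in 5 of 6 pairs. Without HFD M2 the logFC of Cd3g was 0.33 in HFD vs. CD and −0.63 in HFDmetf vs. HFD, and without CDmetf F2 it was 0.60 in CDmetf vs. CD. Whether the diet acted alike with and without metformin is tested by the interaction, which came to −1.91 for Cd3g (SE = 0.736) and −1.57 for Cd3e (SE = 0.753), each at FDR = 0.799 by the quasi-likelihood test of edgeR.

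Cd4 and Cd8a encode the co-receptors that mark helper and cytotoxic T cells. Cd4 (ENSMUSG00000023274, chromosome 6, 124864692 to 124888221, minus strand) had the highest level of the 10 genes and can also be made by some macrophages and dendritic cells. It stood at 4.93 to 17.8 CPM in the CD group (median 8.53), 7.82 to 26.5 CPM in the CDmetf group (median 11.9), 7.28 to 21.7 CPM in the HFD group (median 11.3) and 7.22 to 14.2 CPM in the HFDmetf group (median 12.9). The 2 highest libraries were CDmetf F1 and CDmetf F2. CDmetf F1 had 1.31 CPM of Cd3e, so a high level of Cd4 was not always accompanied by a high level of Cd3e. The logFC of Cd4 was 0.62 in CDmetf vs. CD (SE = 0.305, FDR = 0.940), with CDmetf higher in 4 of 6 pairs, and 0.40, −0.07 and −0.29 in HFD vs. CD, HFDmetf vs. HFD and HFDmetf vs. CDmetf (SE = 0.306, 0.305 and 0.303).

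Cd8a (ENSMUSG00000053977, chromosome 6, 71373427 to 71379173, plus strand) ran at 0.787 to 2.68 CPM in the CD group, 0.601 to 4.85 CPM in the CDmetf group, 1.23 to 3.06 CPM in the HFD group and 0.314 to 2.84 CPM in the HFDmetf group, with medians of 1.99, 1.57, 2.22 and 1.31 CPM. CDmetf F2 was its highest library as well. Cd8b1, the beta chain that conventional CD8 T cells add to the receptor, had at most 3 reads in 15 of 24 libraries and reached 3.64 CPM in CDmetf F2. Trdc (ENSMUSG00000104876, chromosome 14, 54142851 to 54148868, plus strand) encodes the constant region of the delta chain and marks gamma delta T cells. It overlaps Trdv5 and Gm43434 on the other strand. Its 24 libraries held 180 reads in all, 12 libraries had at most 3 reads and 2 had 0, and the highest library was HFD F2 at 2.57 CPM, from 6 reads. Group medians of Trdc were 0.732, 0.690, 0.787 and 0.712 CPM in CD, CDmetf, HFD and HFDmetf, at or near the floor of the shallower libraries. No difference in Trdc between the groups passed the threshold, and the SE of its logFC, from 0.453 to 0.488, allows only a large difference to be seen.

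Itgae encodes integrin αE (CD103), the anchor of intraepithelial T cells to epithelial E-cadherin. Itgae (ENSMUSG00000005947, chromosome 11, 73090583 to 73147446, plus strand), which overlaps Haspin on the other strand, was the steadiest of the 10 genes. It lay at 5.51 to 8.51 CPM in the CD group (median 7.28), 5.76 to 8.83 CPM in the CDmetf group (median 6.34), 6.42 to 9.40 CPM in the HFD group (median 7.46) and 4.43 to 11.9 CPM in the HFDmetf group (median 6.17). The SD over all 24 libraries was 1.63 CPM, or 22.8% of the mean, against 116% for Cd3e and 45.7% for Cd4. Its logFC was 0.13, −0.07, −0.19 and 0.02 in HFD vs. CD, CDmetf vs. CD, HFDmetf vs. HFD and HFDmetf vs. CDmetf, and each of these was smaller than its SE, which ranged from 0.196 to 0.202.

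Cd160 encodes a receptor of natural killer cells and intraepithelial T cells that binds the herpesvirus entry mediator on epithelial cells. Cd160 (ENSMUSG00000038304, chromosome 3, 96798763 to 96829351, minus strand) overlaps Pdzk1 on the other strand, and since the counted strand is not given, reads of both genes in the overlap cannot be told apart. It ran at 0.335 to 3.59 CPM in the CD group (median 1.89), 0.980 to 2.60 CPM in the CDmetf group (median 2.06), 1.74 to 3.85 CPM in the HFD group (median 2.99) and 0.314 to 2.15 CPM in the HFDmetf group (median 1.65). Every HFD library lay above the HFDmetf median, and the ranges still overlapped. In HFDmetf vs. HFD the logFC was −0.82 (SE = 0.378, FDR = 0.640 in edgeR's quasi-likelihood test), with HFDmetf higher in 1 of 6 pairs. Without HFD M2 and HFD F2 it was −0.52 (SE = 0.399, FDR = 0.993). The logFC of Cd160 was 0.52 in HFD vs. CD (SE = 0.363, FDR = 1), with the HFD library higher in 5 of 6 pairs, −0.34 in HFDmetf vs. CDmetf (SE = 0.377) and 0.05 in CDmetf vs. CD (SE = 0.361).

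Gzma and Gzmb encode granzymes, the serine proteases that cytotoxic T cells and natural killer cells release into their targets, and Ccl5 encodes a chemokine that activated cytotoxic T cells store and secrete. Gzma (ENSMUSG00000023132, chromosome 13, 113093825 to 113100981, minus strand) lay between 0.670 and 2.26 CPM in the CD group, between 0.519 and 2.29 CPM in the CDmetf group and between 0 and 1.71 CPM in the HFDmetf group. In the HFD group HFD M3 reached 9.81 CPM, from 24 reads, while the other HFD libraries ran from 0.658 to 1.45 CPM. Group medians were 1.12, 0.932, 1.13 and 1.02 CPM in CD, CDmetf, HFD and HFDmetf. Gzmb (ENSMUSG00000015437, chromosome 14, 56258838 to 56262260, minus strand), which has close relatives in the granzyme family that can take part of its reads, behaved likewise in that animal, with 6.13 CPM from 15 reads in HFD M3 and 0.329 to 0.869 CPM in the other HFD libraries. Its group medians were 1.21, 0.635, 0.626 and 0.943 CPM. HFD M3 had 3.27 CPM of Cd3e and 1.23 CPM of Cd3g, inside the range of the other HFD libraries, 0 reads of Trdc, and the highest Itgae of its group at 9.40 CPM. Gzma had at most 3 reads in 8 of 24 libraries and Gzmb in 9.

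Ccl5 (ENSMUSG00000035042, chromosome 11, 83525778 to 83530518, minus strand) ran from 0.945 to 2.68 CPM in the CD group, 0.686 to 2.42 CPM in the CDmetf group, 0.540 to 3.00 CPM in the HFD group and 0.305 to 2.71 CPM in the HFDmetf group. Its medians were 1.47, 1.54, 2.05 and 0.986 CPM, and the groups overlapped throughout. Fitted together with the 14076 genes, Cd8a, Trdc, Gzma, Gzmb and Ccl5 had no unadjusted p below 0.122 in the 4 contrasts, and an FDR of 0.640 at the lowest.

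None of the 5 tested members passed the FDR threshold of 0.05 in HFD vs. CD, CDmetf vs. CD, HFDmetf vs. HFD, HFDmetf vs. CDmetf or the interaction. Over all 14076 genes the quasi-likelihood test called 0 genes, or 0%, in each of these. DESeq2 called from 0 to 13 genes and 0 of the 5 members, but in HFDmetf vs. CDmetf it gave the members no adjusted p. At an unadjusted p under 0.05 stood 0 of the 5 in HFD vs. CD, 2 in HFDmetf vs. CDmetf (Cd3e and Cd3g), 1 in HFDmetf vs. HFD (Cd160), 0 in CDmetf vs. CD and 2 in the interaction (Cd3e and Cd3g), against 652, 1108, 929, 724 and 848 of all genes. The median logFC of the 5 in the 4 contrasts was 0.40, −0.34, −0.77 and 0.62 in that order, beside −0.005, 0.033, 0.026 and −0.002 over all genes tested; the contrasts share groups and are not independent of each other. For none of the 10 genes were the CPM of 2 compared groups free of overlap, which held for 0.0853%, 0.149%, 0.0355% and 0.142% of all genes in HFD vs. CD, CDmetf vs. CD, HFDmetf vs. HFD and HFDmetf vs. CDmetf. Males and females did not differ past the threshold for any of the 5 (smallest FDR 0.694, for Cd3g, in a term that called 0.0071% of genes). That fit kept HFD M2 and HFD F2 under sex labels that their transcripts went against. Without these 2 libraries the sex term called 8 of 15044 genes and 0 of the 8 T-cell genes then tested.

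These counts depended on how the libraries were weighted. Limma-voom with sample quality weights, which ranged from 0.262 in CD M3 to 3.21 in HFD F1, called Cd4 in HFD vs. CD (logFC 0.89, FDR = 0.00358), where it called 10.1% of all genes. It called Cd3e (logFC −1.67, FDR = 0.0342) and Cd3g (logFC −1.71, FDR = 0.0143) in HFDmetf vs. CDmetf, where it called 6.44% of genes, and the same pair in HFDmetf vs. HFD (logFC −1.19 and −1.40, FDR = 0.0375 and 0.00615), where it called 18% of genes. In the interaction it called Cd3e, Cd3g and Cd4 at 6.91% of genes, and in CDmetf vs. CD it called none of the 5 at 0.263% of genes. Limma-voom without these weights called 0 members in every contrast.

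Ms4a1 varied more over the 24 libraries than any of the T-cell genes, with an SD of 174% of its mean. Ms4a1 (ENSMUSG00000024673, chromosome 19, 11249675 to 11266241, minus strand), which overlaps 4930526L06Rik on the other strand, stood at 0.513 to 7.22 CPM in the CD group (median 0.740), 0.902 to 49.4 CPM in the CDmetf group (median 6.92), 1.63 to 33.6 CPM in the HFD group (median 2.19) and 0.796 to 3.98 CPM in the HFDmetf group (median 1.56). The 6 highest libraries were CDmetf F2 (49.4 CPM), HFD F1 (33.6), HFD M2 (21.7), CDmetf F3 (17.9), CDmetf M1 (12.2) and CD F1 (7.22), and the other 18 lay at or below 3.98 CPM. The logFC of Ms4a1 was 2.79 in CDmetf vs. CD (SE = 0.918), 2.48 in HFD vs. CD (SE = 0.915), −2.84 in HFDmetf vs. CDmetf (SE = 0.984) and −2.53 in HFDmetf vs. HFD (SE = 1.005), without passing the threshold (smallest FDR 0.596 in edgeR's quasi-likelihood test). The signs of Cd3e, Cd3g, Cd4 and Cd160 were those of Ms4a1 in all 4 contrasts, which share groups. Cd4 in HFDmetf vs. HFD (−0.07, SE = 0.305) and Cd160 in CDmetf vs. CD (0.05, SE = 0.361) were far smaller than their SE, so their signs are not settled. Itgae shared the sign in HFD vs. CD (0.13) and HFDmetf vs. HFD (−0.19) only.

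Over the 24 libraries, Cd3e and Cd3g had the highest values of r with Ms4a1 of the 10 genes. On log2 CPM, Pearson's r with Ms4a1 was 0.71 for Cd3e (Spearman's rho 0.57; permutation p = 0.00015 and 0.0038) and 0.61 for Cd3g (rho 0.66; permutation p = 0.0013 and 0.00061). It was 0.51 for Cd8a (rho 0.42; permutation p = 0.011 and 0.045) and 0.41 for Cd4 (rho 0.30; permutation p = 0.048 and 0.15). For the other genes r was 0.34 for Cd160, 0.21 for Trdc, 0.15 for Ccl5, −0.02 for Gzma, −0.08 for Itgae and −0.26 for Gzmb, and permutation p values for r of 0.099 or more. By rank, Cd160 (rho 0.44) and Gzmb (rho −0.42) had permutation p values of 0.033 and 0.04, and the rho of Cd160 was no lower than those of Cd8a and Cd4. The correlations were not tested against each other, and those of Cd8a, Trdc, Ccl5, Gzma and Gzmb rest on few reads per library. These are 10 correlations with 2-sided p values that were not adjusted for their number. The permutations shuffled all 24 libraries and did not hold group, sex or replicate number fixed. In bulk tissue, fewer cells of a type and less RNA per cell cannot be told apart.

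The correlations of Cd3e and Cd3g with Ms4a1 were lower without the libraries highest in Ms4a1. Without CDmetf F2 and HFD F1, the 2 libraries farthest from the median of Ms4a1, r was 0.53 for Cd3e (permutation p = 0.011), 0.48 for Cd3g (permutation p = 0.028), 0.31 for Cd8a (permutation p = 0.16) and 0.21 for Cd4 (permutation p = 0.35). Within the 18 libraries lowest in Ms4a1, r was −0.05 for Cd3e, 0.06 for Cd3g, 0.04 for Cd8a and 0.18 for Cd4 (permutation p = 0.85, 0.83, 0.87 and 0.46). The libraries were split on Ms4a1 itself, and these 18 reach at most 3.98 CPM of it, many from few reads. With so narrow a range, a low r cannot show that the genes are unrelated in them. Within the 6 highest, r was 0.78 for Cd3e, 0.83 for Cd3g, 0.89 for Cd8a and 0.78 for Cd4 (exact permutation p = 0.062, 0.047, 0.019 and 0.068, n = 6). Split by sequencing depth, r for Cd3e was 0.78 in the 10 deep libraries and 0.74 in the 14 others, and r for Cd3g was 0.74 and 0.61. Within the CD, CDmetf, HFD and HFDmetf groups (n = 6 each), r was 0.18, 0.91, 0.77 and 0.61 for Cd3e. For Cd3g it was 0.27, 0.93, 0.88 and 0.21. For Cd8a it was −0.16, 0.96, 0.61 and 0.37, and for Cd4 −0.18, 0.36, 0.79 and 0.05. Within replicate numbers 1, 2 and 3, r was 0.87, 0.76 and 0.53 for Cd3e and 0.94, 0.59 and 0.61 for Cd3g (exact permutation p = 0.0053, 0.032, 0.18, 0.0015, 0.14 and 0.12, n = 8). CD F2 was an exception to the trend of Cd3e, with 7.71 CPM of Cd3e at 0.670 CPM of Ms4a1, from 23 and 2 reads.

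**Figure D2:**
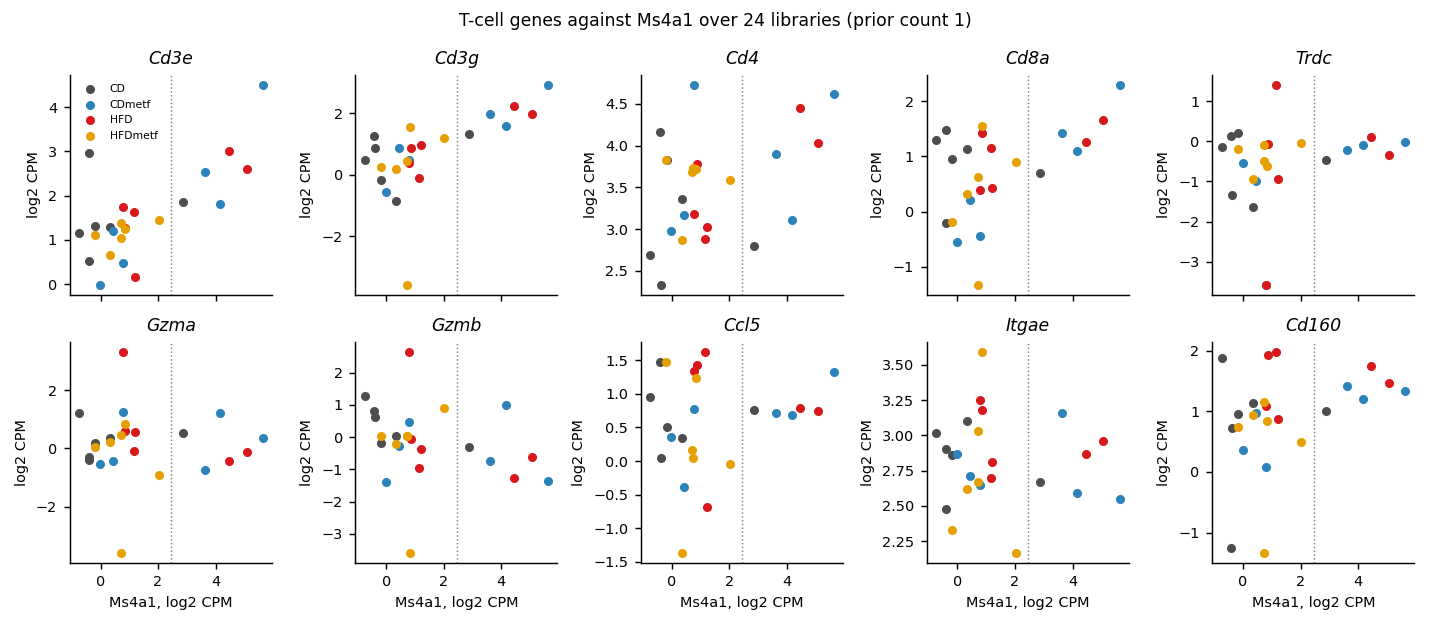
Log2 CPM of each T-cell gene (vertical axis) against log2 CPM of Ms4a1 (horizontal axis) in 24 libraries coloured by group, with a dotted line between the 18 lowest and 6 highest in Ms4a1. Cd3e (r = 0.71) and Cd3g (r = 0.61) lie highest to the right of the line, Gzma (r = −0.02) and Itgae (r = −0.08) do not, and the lowest points are libraries with few or no reads.

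The same question was put to all genes by adding log2 CPM of Ms4a1 to the model with group, sex and replicate number. Cd3e rose with Ms4a1, by 0.43 on the log2 scale per doubling of Ms4a1 (SE = 0.091, FDR = 0.0135 in edgeR's quasi-likelihood test), and was the only member of the 5 tested past the threshold, where 1.26% of the other 14075 genes were called and 1.24% in the rising direction. Cd3g had a slope of 0.35 (SE = 0.100, FDR = 0.138), which DESeq2 called (FDR = 0.0126, at 1.78% of genes). Cd4 and Cd160 had slopes of 0.08 each (SE = 0.071 and 0.091) and Itgae of −0.03 (SE = 0.049), none past the threshold. The call of Cd3e was lost without CDmetf F2 (slope 0.35) and without CDmetf F1 (slope 0.40), and in the 18 libraries lowest in Ms4a1 its slope was 0.16 and 0 of 14619 genes were called in edgeR, with 1221 at an unadjusted p under 0.05. With no gene called there, B-cell markers included, that fit cannot show whether Cd3e follows Ms4a1 in these libraries. The number of genes called fell from 177 to 105 without CDmetf F2 and to 112 without HFD F1. Whether one follicle-rich piece of tissue gives both RNAs was not tested.

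With Ms4a1 in the model, the differences of Cd3e between groups shrank or changed sign. In HFDmetf vs. CDmetf its logFC went from −1.23 to −0.09 (SE = 0.439), in HFDmetf vs. HFD from −0.77 to 0.19 (SE = 0.434), in CDmetf vs. CD from 0.80 to −0.52 (SE = 0.453) and in HFD vs. CD from 0.34 to −0.79 (SE = 0.445). Cd3g moved to −0.39, −0.21, −0.02 and −0.19 in the same order (SE = 0.485, 0.476, 0.500 and 0.482). The values of Cd160 moved less, from −0.82 to −0.66 in HFDmetf vs. HFD (SE = 0.412) and from 0.52 to 0.36 in HFD vs. CD (SE = 0.407). No member passed the threshold in either model.

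**Figure D3:**
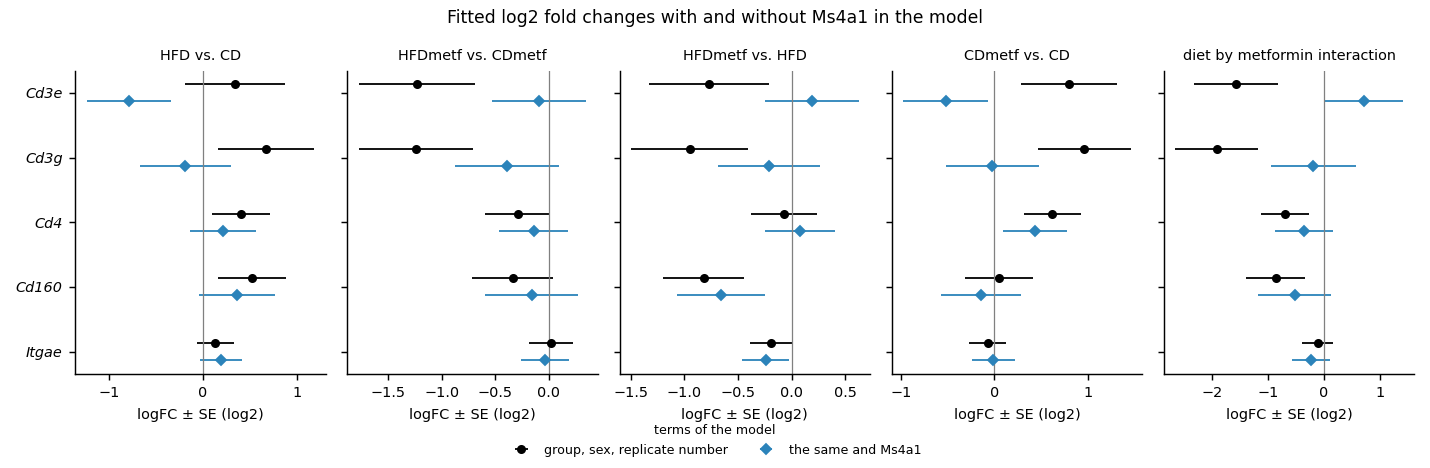
Fitted logFC (horizontal axis, log2, with bars of ± SE) of the 5 tested T-cell genes in the 4 contrasts and the interaction, from the model with group, sex and replicate number (black) and the same model with Ms4a1 (blue). For Cd3e the value in HFDmetf vs. CDmetf moves from −1.23 to −0.09, whereas Itgae stays near 0 in both.

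Of the other genes of the T-cell receptor pathway, 5 rose with Ms4a1 and the rest of those tested did not pass the threshold, where 1.26% of all genes did. The receptor complex list (13 genes, such as Trac and Cd2) had 4 genes above the filter, all 4 with a positive slope on Ms4a1 (median 0.51) and 2 called, Cd2 (slope 0.66, FDR = 0.00108) and Trac (slope 0.62, FDR = 0.00112). Trac encodes the constant region of the alpha chain and so marks alpha beta T cells. In TCR signalling (14 genes) 12 were tested, all 12 had a positive slope (median 0.24), and 3 were called: the kinase gene Lck (0.45, FDR = 0.0423), the phosphatase gene Ptprc (0.34, FDR = 0.00081) and the cytokine receptor gene Il2rg (0.34, FDR = 0.00662). B cells make Ptprc and Il2rg as well. Of the helper, regulatory and naive T-cell genes, 5 of 13 were tested and 3 called, among them Cxcr5 (1.16, FDR = 5.86e-06), the receptor that brings cells into follicles, and Tcf7 (0.33, FDR = 0.00711), and B cells make Cxcr5 too.

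None of the tested genes of the cytotoxic lists was called, beside 1.26% of all genes. With so few genes tested, a call was unlikely at that share. Of the 12 genes of the cytotoxic effector list 4 were tested, with a median slope of 0.06 and 0 called. They were Ctsw (0.16), Srgn, the proteoglycan of cytotoxic granules (0.13), Serpinb6b (−0.01) and Serpinb9 (−0.05). Serpinb6b and Serpinb9 belong to the serpins, a family of protease inhibitors, so the median of this list is not that of effectors alone. Ctsw and Srgn had an unadjusted p under 0.05 in edgeR's quasi-likelihood test, as did 1120 of the 14075 genes. The 2 tested of 13 NK-type receptor genes had slopes of −0.12 and −0.04. The other 8 and 11 genes of these lists lay under the filter, Prf1, Gzmk, Nkg7 and Fasl among them, so the 4 tested genes do not stand for cytotoxic genes as a whole. Among 14 genes of intraepithelial homing and residence, 13 were tested, with a median slope of 0.19, and 5 were called, Itgb7 (0.31), Itga4 (0.19), Cd69 (0.58), Gpr18 (0.30) and Runx3 (0.35). Itgb7 pairs with the product of Itgae in intraepithelial cells and with that of Itga4 in cells that enter the gut from blood, and Cd69 is also made by activated B cells. None of the 5 slopes can be assigned to T cells, and the part of B cells in them was not tested. The 12 epithelial genes that support intraepithelial lymphocytes, such as Btnl1, had a median slope of 0.02 and 0 calls, and 1 of 10 T-cell cytokine and chemokine genes was tested, Tgfb1 with a slope of 0.17. Over all genes tested the median slope was −0.005.

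Marker lists of other cell types were read beside these values. All 13 other B-cell markers were called with a positive slope (median 0.76), among them Cd79a (0.67), and so were all 3 tested of 5 genes of follicular stroma, including Cxcl13 (0.65) and Madcam1 (0.39), while Ccl21a was at 0 in every library. The summed CPM of the 14 B-cell markers ran from 20.3 to 115 in CD, 28.3 to 572 in CDmetf, 29.4 to 471 in HFD and 19.8 to 55.7 in HFDmetf, and that of the 5 follicular genes from 19 to 58.1, 35.1 to 252, 14.6 to 215 and 27.1 to 55.2. Plasma cells (median slope 0.01, Jchain −0.09), macrophages (−0.06, Cd68 −0.01, Adgre1 −0.13), innate lymphoid cells type 3 (−0.03), mast cells (−0.11, Mcpt1 −0.19), epithelium (0.01, Epcam 0.02, Cdh1 0.03) and smooth muscle (−0.04, Acta2 −0.07, Myh11 −0.01) had 0 calls each. Of 6 tested dendritic cell markers (median 0.11, Flt3 0.14, Zbtb46 0.03) 1 was called, Ccr6 (0.76), which B cells also express. The part of any of these cells in the T-cell values was not tested.

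**Figure D4:**
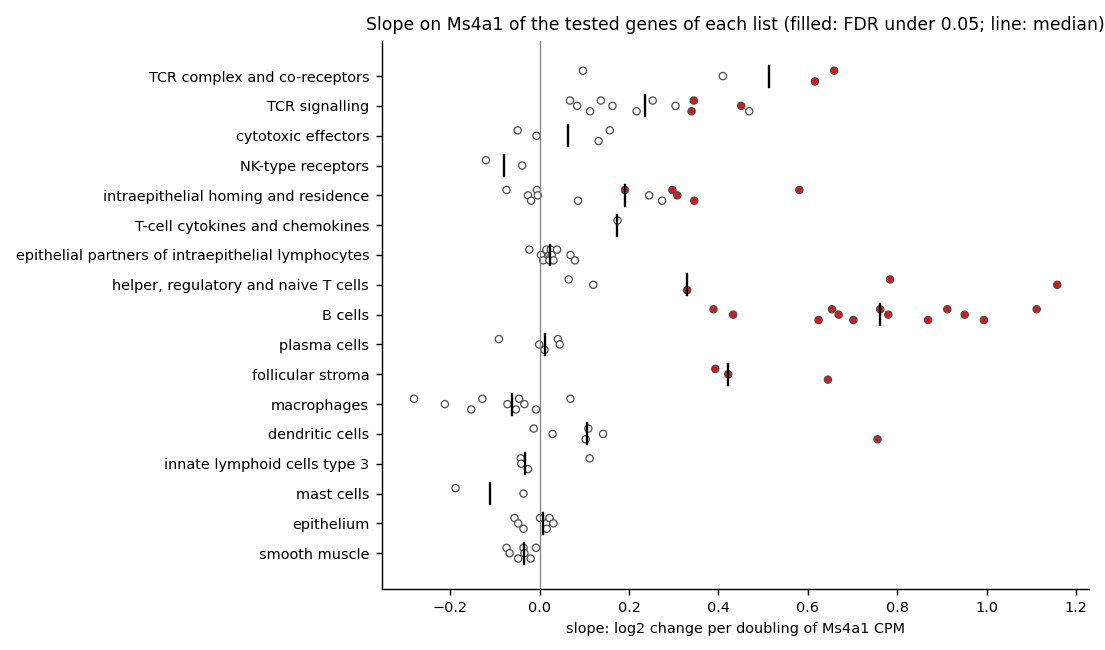
Slope on Ms4a1 (horizontal axis, log2 change per doubling of Ms4a1 CPM) of each tested gene (points) of the 8 T-cell lists and 9 marker lists (rows), filled where the FDR was under 0.05, with the median of each list as a line. B-cell markers lie at a median of 0.76, the 4 tested genes of the receptor complex at 0.51, and the 4 tested genes of the cytotoxic effector list, protease inhibitors among them, at 0.06.

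In the contrasts between groups 0 genes of the 8 T-cell lists were called, beside 0% of all genes. The receptor complex list had its 4 tested genes higher in HFD vs. CD (median logFC 0.89) and in CDmetf vs. CD (1.22) and all 4 lower in HFDmetf vs. CDmetf (−1.38) and HFDmetf vs. HFD (−1.11). The 4 tested of the 12 genes of the cytotoxic effector list had medians of 0.32, 0.20, −0.20 and −0.32 in that order, beside −0.005, −0.002, 0.033 and 0.026 over all genes. The smallest unadjusted p values of the T-cell lists belonged to Zap70 (logFC 1.15), Bcl6 (0.51) and Cd28 (0.91) in HFD vs. CD. Among the 3 smallest were Cxcr5 (−3.55) and Trac (−1.96) in HFDmetf vs. CDmetf, Cxcr5 (−3.29) and the butyrophilin-like gene Btnl1 (−0.64) in HFDmetf vs. HFD, and Srgn (0.62), Il2rg (1.17) and Cxcr5 (2.80) in CDmetf vs. CD, with FDR of 0.582 or more in edgeR's quasi-likelihood test. The 14 B-cell markers had the same signs and, again with 0 calls, medians of 1.67, 2.05, −2.03 and −2.34 in HFD vs. CD, CDmetf vs. CD, HFDmetf vs. HFD and HFDmetf vs. CDmetf. The 3 follicular genes had medians of 1.12, 1.55, −1.25 and −1.34, the 10 macrophage genes 0.26, 0.41, 0.44 and 0.18, and the 7 smooth muscle genes −0.42, −0.05, 0.43 and 0.08. All 10 macrophage genes were higher in CDmetf vs. CD and in HFDmetf vs. HFD, and all 7 smooth muscle genes were lower in HFD vs. CD and higher in HFDmetf vs. HFD, with 0 calls. The part of these cells in the values of Cd4 and the other T-cell genes was not tested.

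The members also differed in which genes their levels resembled over the 24 libraries, given here as a description in which all points share library depth and composition. Cd3e was closest to Rasgrp1 (r = 0.88), Tspan32 (0.85) and Akna (0.84), Cd3g to Ltb (0.88), Samsn1 (0.82) and Ms4a6b (0.79), and Cd8a to Il16 (0.82) and Clcf1 (0.82), most of which are expressed in lymphocytes. Cd4 was closest to Unc93b1 (0.85), Ppp1r18 (0.83) and Agap2 (0.82). For the others the closest genes had lower r: Cd160 with Flad1 (0.74), Crlf3 (0.72) and 9430034N14Rik (0.70), Itgae with Gm15764, Kcnab1 and Gm47087 (0.71 each), Gzma with B230216N24Rik (0.73), Gm15601 (0.69) and Strip2 (0.68), Gzmb with Lingo4 (0.76), Cdc14b (0.73) and Prkg2 (0.72), Trdc with Tmem25 (0.78), Pkhd1 (0.73) and Nat14 (0.72), and Ccl5 with Hrc (0.80), Scarna2 (0.79) and Phf1 (0.77). Among the members themselves the highest values were 0.72 for Cd3g with Cd8a and 0.68 for Cd3e with Cd8a, while Gzma and Gzmb gave 0.29 and Itgae and Cd160 gave 0.23.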

How the data were processed

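The authors trimmed the reads with Trimmomatic 0.39, ran STAR 2.5.3a for alignment to GRCm38 and for counting, and deposited raw read counts per gene for 24 libraries; the annotation release and counted strand are not given in the sources used here. Library totals ranged from 1829690 to 40606442 reads, without the 4 summary lines (unmapped reads alone were 7.58% to 46.9% of a column). From these counts, genes were filtered with filterByExpr (14076 kept), scaled by TMM and fitted in edgeR 4.0.16 (R 4.3.3) on group, sex and replicate number, using the quasi-likelihood test with Benjamini-Hochberg adjustment and a threshold of 0.05. The replicate number served as a block because the study used a randomized block design; the pairing comes from the numbers in the labels. Deviations from the means of group and sex had an average r of 0.154 between groups for equal numbers (72 pairs) and −0.0768 for unequal ones (144 pairs). The value for unequal numbers largely follows from the other, since the deviations within each group and sex add up to 0. Every library of number 2 was among the 14 shallower ones, and the part of depth in these values was not tested. Whether the numbers are the study's blocks is not stated. The 5 members below the filter were carried in the same fits with library sizes unchanged; their fold changes are not given singly. Correlations use log2 CPM (prior count 1) and 100000 permutations, or all of them under 10 libraries. The SE is the logFC divided by the root of the F statistic. For Trdc and Itgae the test gave, in some contrasts, a larger p than this ratio implies, so the printed SE can be too small there. Coordinates and gene symbols are from GENCODE M21 (55536 of 55536 IDs matched), and scripts were tested on simulated data. Named genes are the 10 members, Ms4a1, the 3 genes of the T-cell lists with the smallest p in each contrast, the opening genes of each marker list, the 3 tested genes most correlated with each member, and the called genes of lists with at most 3 of them. The 5 of homing and residence, the genes of the cytotoxic effector list other than Srgn, Cd8b1 and the lowest and highest libraries were named after their values were seen. A few genes that this rule names are not reported here. The members and lists were chosen with earlier results of these data known.

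The alternatives were limma-voom (limma 3.58.1) with and without sample quality weights, DESeq2 1.42.0, RLE normalization, no filter, at least 10 counts in every library, no replicate block, no sex term, only the 12 libraries compared, a B-cell covariate, immunoglobulin genes left out, a prior count of 0.25, both libraries at odds with their sex labels left out, and each library left out in turn. A depth term, the depth classes, the 18 libraries lowest in Ms4a1 and the carrying of members below the filter were chosen after seeing the data.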

Additional observations from a re-analysis of the deposited data

Results flagged for a closer look

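Single libraries stood apart in 8 of the 44 groups of 6 libraries examined for the 10 T-cell genes and Ms4a1, by Dixon's criterion, which chance meets in about 1 of 20 groups of normally distributed values. They were Cd3e in CD F2 (7.71 CPM) and CDmetf F2 (22.7 CPM), Gzma and Gzmb in HFD M3 (9.81 and 6.13 CPM), and Ms4a1 in CD F1 (7.22 CPM), CDmetf F2 (49.4 CPM) and HFDmetf M3 (3.98 CPM), each the highest of its group, and Cd4 in HFDmetf F3 (7.22 CPM), the lowest of its group. CPM of low counts are skewed and the groups of all genes share the same libraries, so that rate need not hold here.

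In 3 of 66 comparisons all 3 male pairs differed one way and all 3 female pairs the other, and the difference between the sexes was not tested. Among so many comparisons chance alone also gives this pattern in some, and Gzma and Gzmb rest on few reads. Gzma in CDmetf vs. CD differed by −0.91 CPM in males and 0.995 CPM in females. Gzmb in HFDmetf vs. CDmetf differed by 0.699 CPM in males and −0.603 CPM in females. Itgae in HFDmetf vs. CDmetf differed by −2.29 CPM in males and 2.73 CPM in females. Much of the female value came from HFDmetf F2, at 11.9 CPM from 21 reads, against 5.76 CPM in CDmetf F2.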

How the results depend on the processing

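With sample quality weights limma-voom called 1, 2, 2 and 3 T-cell genes in HFD vs. CD, HFDmetf vs. HFD, HFDmetf vs. CDmetf and the interaction, and 1428, 2539, 907, 973 and, in CDmetf vs. CD, 37 genes in all. DESeq2 called 13, 3, 4 and 4 genes in HFD vs. CD, HFDmetf vs. CDmetf, CDmetf vs. CD and the interaction. Leaving out 1 library gave 0 to 1 genes in HFD vs. CD (1 without CD F1). Males and females differed in 1 gene, in 19 with DESeq2, 16 with quality weights, 15 without a filter, 8 without HFD M2 and HFD F2, 2 with a B-cell score or without immunoglobulin genes, 0 with Ms4a1 or a depth term, and 1 to 8 with 1 library left out. For the slope on Ms4a1, 2 T-cell genes were called by DESeq2 or without a sex term, 0 with at least 10 counts in every library (2 of them tested, 47 genes called), 0 in the 18 lowest libraries (0 genes), and 0 to 2 with 1 library left out (0 without CDmetf F1 or CDmetf F2, 2 without HFDmetf M2, 105 to 218 genes).

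Without the replicate block 198 genes had a slope on Ms4a1, 1 T-cell gene among them, 0 genes were called in the 4 contrasts, and Cd160 went to −0.03 in CDmetf vs. CD; the block changed no other call of these genes. With the B-cell score as a covariate, Cd3e was −0.64 in HFD vs. CD, 0.06 in HFDmetf vs. CDmetf, 0.30 in HFDmetf vs. HFD, −0.40 in CDmetf vs. CD and 0.70 in the interaction, Cd3g −0.05 in HFD vs. CD, Cd4 0.09 in HFDmetf vs. HFD, Itgae −0.01 in HFDmetf vs. CDmetf and Cd160 −0.11 in CDmetf vs. CD. With Ms4a1 as a covariate, Cd3e was −0.79, 0.19, −0.52 and 0.71 in HFD vs. CD, HFDmetf vs. HFD, CDmetf vs. CD and the interaction, Cd3g −0.19 and −0.02 in HFD vs. CD and CDmetf vs. CD, Cd4 0.08 in HFDmetf vs. HFD, Itgae −0.04 in HFDmetf vs. CDmetf and Cd160 −0.14 in CDmetf vs. CD. Itgae in HFDmetf vs. CDmetf, at 0.02, was −0.02 by DESeq2 and by limma-voom, −0.05 without a filter and in the 12 libraries alone, −0.002 with RLE and −0.16 to 0.14 with 1 library left out, and in CDmetf vs. CD it was 0.09 with quality weights. With 1 library left out, Cd160 ran from −0.13 to 0.25 in CDmetf vs. CD, Cd4 from −0.24 to 0.03 in HFDmetf vs. HFD, the Itgae interaction from −0.30 to 0.001, and the correlations with Ms4a1 from −0.10 to 0.03 for Gzma and −0.16 to 0.01 for Itgae. In the 18 lowest libraries the slopes were 0.01 for Itgae and −0.03 for Cd160, and the correlations −0.05 for Cd3e, −0.05 for Trdc and −0.15 for Ccl5. The correlation was 0.01 for Gzma without HFD M2 and HFD F2 and 0.09 in the 10 deep libraries, −0.03 for Ccl5 in the 14 others and 0.07 for Itgae against the B-cell score. The cause of these shifts was not tested.

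Depth limits the rarest genes most: Trdc had at most 3 reads in 12 of 24 libraries, Gzmb in 9 and Gzma in 8.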
